A study of Mus musculus with 27 samples.

Results

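The 9 genes described here encode transcription factors of the periocular mesenchyme, the loose connective tissue around the developing eye and optic stalk: Foxc1, Foxc2, Tfap2a, Tfap2b, Twist1, Prrx1, Prrx2, Lmx1b and Tcf21. They were chosen by name, for their known roles, from the 55487 genes of the count table. Earlier results of these data were known when these genes and the gene lists below were chosen. Reads were counted per gene in 27 libraries of embryonic day 14 (E14) mouse heads, each made from a piece of the transverse optic stalk (OS) that was cut by laser from frozen sections of 12 µm. Each of 4 control and 5 mutant embryos gave 1 piece of the dorsal side, 1 of the ventral side and 1 of the axon region, so there are 6 groups. The mutants (Smarcc1-DCT-cKO) were Baf155 loxP/loxP embryos that carried Dct-Cre and the Z/EG reporter, where Baf155 is another name of Smarcc1, which encodes a core protein of SWI/SNF chromatin remodellers. The controls were littermates without Dct-Cre. The mice were on a C57Bl6/J background. In Dct-Cre the promoter of a pigment cell gene drives Cre. The labels put control 1 and mutants 1 to 3 in batch A and controls 2 to 4 and mutants 4 and 5 in batch B, without saying what a batch is.

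Periocular mesenchyme arises from cranial neural crest and head mesoderm and later builds the corneal stroma and endothelium, the stroma of the iris, the sclera, the choroid and the sheath of the optic nerve. Foxc1 and Foxc2 are forkhead factors of crest and mesoderm, and loss of Foxc1 function disturbs the front of the eye. Tfap2a and Tfap2b are AP-2 factors of the neural crest, Twist1 and Tcf21 are basic helix-loop-helix factors, Prrx1 and Prrx2 are paired-type homeodomain factors of craniofacial and limb mesenchyme, and Lmx1b is a LIM-homeodomain factor of the anterior segment. Mesenchyme cells of this kind also make fibrillar collagens, small proteoglycans and elastic fibre proteins, here called matrix genes. The comparison asked whether these regulators were lower wherever the matrix genes were lower in dorsal mutants.

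Total counts ranged from 10.9 to 34.0 M counts per library (in units of 1000000), so that 3 counts, the level up to which a gene is treated here as not detected, equalled 0.0883 to 0.275 CPM (counts per 1000000 counts of the library). The cDNA was amplified by PCR and carried no molecular identifiers, so these limits cover counting error only. Smarcc1, the deleted gene, was lower in every mutant than in every control library of the ventral stalk and of the axon region. In the dorsal stalk Smarcc1 stood at 116, 75.9, 289 and 97.2 CPM in controls 1 to 4 and at 94.9, 107, 2.26, 44.3 and 24.5 CPM in mutants 1 to 5. The dorsal libraries labelled mutant 1 and mutant 2 thus lay within the range of the controls for the targeted gene. The exact tests of Foxc1, Twist1 and Prrx1 and the separation of Foxc1 in the dorsal stalk are also given without both. No other dorsal result given here leaves out both. Axon genes (Nefl, Nefm, Gap43, Stmn2, Tubb3) summed to 1182 to 1577 CPM in axon controls, to 10.4 to 830.3 CPM in dorsal controls and to 60.9 to 1162 CPM in ventral controls.

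Most of the 9 factors were rare at this depth. Of the 9, 5 (Foxc1, Foxc2, Tfap2b, Twist1 and Prrx1) had more than 10 counts in at least 3 libraries and were tested. Because a gene can pass that filter through 1 group alone, no count over these 5 is read as support. Prrx1 was found with more than 3 counts in 20 libraries, Foxc1 in 15, Twist1 in 14, Foxc2 in 11, Tfap2b in 6, Prrx2 in 3, Lmx1b in 2 and Tfap2a in 1. Tcf21 had 0 counts in all 27 libraries, which allows a level of up to 0.275 CPM in the shallowest library. On the mm10 build with GENCODE release M21, Foxc1 is a gene of 1 exon at chr13:31806633-31812476 on the plus strand, Twist1 lies at chr12:33957671-33959829 on the plus strand, Prrx1 at chr1:163245119-163313710 on the minus strand and Foxc2 at chr8:121116171-121118895 on the plus strand. Tfap2b lies at chr1:19208914-19238576 (plus), Prrx2 at chr2:30834972-30881251 (plus), Lmx1b at chr2:33560965-33640511 (minus), Tcf21 at chr10:22817281-22820174 (minus) and Tfap2a at chr13:40715302-40738376 (minus). Tfap2a shares 14.6% of its exonic bases with 3 genes on the other strand, and the strand setting of the counting is not given in the sources used here, so its 11 counts in 1 library cannot be assigned to it with certainty. The other 8 share no exonic base with a neighbour.

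The sequences before the start sites of Foxc1, Twist1 and Prrx1 are shown because these 3 genes carried the difference between dorsal controls and mutants described further on. They come from RefSeq's annotation of GRCm38.p6, whose windows of 250 bases before the start covered 8 of the 9 genes, and are cut where the GENCODE gene begins. They are written 5′ to 3′ on the strand of the gene: Foxc1 at chr13:31806396-31806632 (plus), Twist1 at chr12:33957421-33957670 (plus) and Prrx1 at chr1:163313711-163313900 (minus). Capitals mark matches on either strand to the motifs CANNTG (E-box, bound by basic helix-loop-helix factors), TAAACA (forkhead core), TAATTA (homeodomain core) and GCCNNNGGC (AP-2), which do not overlap in these stretches.
Foxc1: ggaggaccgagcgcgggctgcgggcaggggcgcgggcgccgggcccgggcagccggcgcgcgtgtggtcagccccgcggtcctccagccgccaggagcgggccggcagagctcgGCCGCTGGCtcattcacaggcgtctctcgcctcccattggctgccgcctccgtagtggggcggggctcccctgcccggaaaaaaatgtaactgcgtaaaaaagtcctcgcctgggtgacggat
Twist1: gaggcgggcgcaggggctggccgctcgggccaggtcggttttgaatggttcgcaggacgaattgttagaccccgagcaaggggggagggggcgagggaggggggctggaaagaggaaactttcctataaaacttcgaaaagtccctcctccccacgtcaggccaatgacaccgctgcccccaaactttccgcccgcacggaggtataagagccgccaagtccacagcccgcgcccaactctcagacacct
Prrx1: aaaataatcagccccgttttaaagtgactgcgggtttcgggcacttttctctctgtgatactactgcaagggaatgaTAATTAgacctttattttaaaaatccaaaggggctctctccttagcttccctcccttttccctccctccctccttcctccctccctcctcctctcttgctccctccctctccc
The Foxc1 stretch held 1 AP-2 match, which starts at base -136 from the RefSeq start, and the Prrx1 stretch held 1 homeodomain match, at base -173. The Twist1 stretch held none of the 4. Among all 32851 such windows of the mouse annotation, 66.2% held an E-box, 12% a forkhead core, 4.84% a homeodomain core and 13.7% an AP-2 match. The matches are letters in a window and were not measured as sites. GC content was 70.8% over the Foxc1 window, 62.4% over that of Twist1 and 47.6% over that of Prrx1, against a median of 52.4% over all windows.

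Foxc1 was the member that differed most clearly in the dorsal stalk. In dorsal controls 1 to 4 Foxc1 stood at 28.6, 77.7, 205 and 41.5 CPM, and in dorsal mutants 1 to 5 at 0, 0, 14.6, 0 and 22.1 CPM. The highest mutant was lower than the lowest control, and 3 of the 5 mutants had no count at all. Such a complete separation downward was found for 1.61% of the 16145 genes tested in this region. The difference of the mean log2(CPM + 1) was -4.37, from 6.07 ± 1.23 (SD, n = 4) to 1.70 ± 2.33 (SD, n = 5), and an exact permutation test over the 126 ways to assign the genotypes gave p = 0.0238, which was 0.582 after Benjamini-Hochberg adjustment over all genes. All exact tests here are two-sided. An exact p under 0.05 was reached by 7.66% of all genes in this comparison. Within batch A the control stood at 28.6 CPM and the mutants at 0, 0 and 14.6 CPM, and within batch B the controls at 77.7, 205 and 41.5 CPM and the mutants at 0 and 22.1 CPM, so Foxc1 was lower in mutants in each batch. With genotypes exchanged within batches alone, in 40 ways, the exact p was 0.025, the smallest that can be reached. Without the dorsal libraries of mutants 1 and 2 the separation held, with an exact p of 0.0286 over 35 assignments, again the smallest possible. Fewer mesenchyme cells in a piece and less Foxc1 RNA per cell cannot be told apart in these bulk samples, and the same holds for every gene below.

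Twist1, which encodes a basic helix-loop-helix factor needed for head mesenchyme, was also low in the dorsal mutants. Twist1 stood at 28.6, 2.61, 37.5 and 11.5 CPM in dorsal controls 1 to 4 and at 0.459, 0, 0.0707, 0 and 8.84 CPM in mutants 1 to 5. The groups overlapped, since mutant 5 lay above control 2. The difference of the mean log2(CPM + 1) was -3.12, and its exact permutation p = 0.0238 had an adjusted value of 0.582. In batch A the control stood at 28.6 CPM against at most 0.459 CPM in 3 mutants, and in batch B the controls lay between 2.61 and 37.5 CPM while the mutants stood at 0 and 8.84 CPM. With exchange within batches the exact p was 0.05, and without mutants 1 and 2 it was 0.114. Leaving out any 1 of control 1, control 3 and mutants 1 to 4 also took it above 0.05, to at most 0.0571.

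Prrx1, a homeodomain factor of connective tissue progenitors, stood at 15.3, 42.8, 21.9 and 2.02 CPM in dorsal controls 1 to 4 and at 0, 0, 0.566, 13.6 and 0 CPM in mutants 1 to 5. In 4 of the 5 mutants Prrx1 was below every control, and mutant 4 lay between controls 1 and 4. The difference of the mean log2(CPM + 1) was -3.00 (exact permutation, p = 0.0556). The p was 0.0317 with a pseudocount of 0.1 CPM, 0.05 within batches, 0.0179 without control 4, 0.0286 without mutant 4 and 0.143 without mutants 1 and 2.

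**Figure D1:**
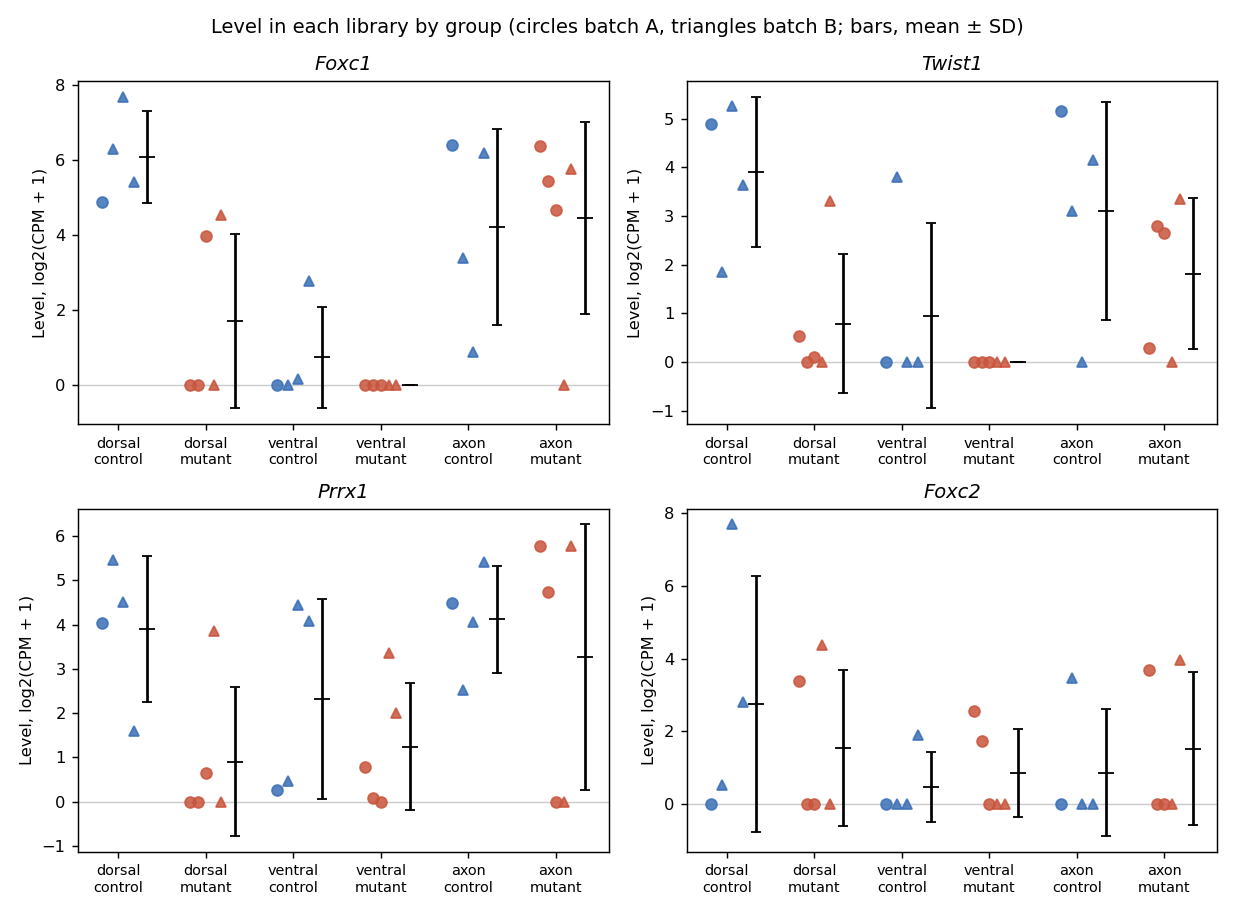
Level of Foxc1, Twist1, Prrx1 and Foxc2 on the log2(CPM + 1) scale in each library of the 6 groups, controls in blue and mutants in red (circles batch A, triangles batch B), with the mean and SD of each group in black (n = 4 controls, n = 5 mutants). Foxc1 is the 1 gene of the 4 whose dorsal mutants all lie below the dorsal controls, and the axon groups of every gene overlap.

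The plot of levels by group shows that the SD of a group often reached below 0 on the log2 scale, because the mutant groups mix libraries at 0 with libraries at up to 22.1 CPM for Foxc1. Foxc2 shows this most strongly. Its dorsal controls stood at 0, 0.434, 204 and 5.99 CPM and its dorsal mutants at 9.36, 0, 0, 19.7 and 0 CPM, so that 1 control library held nearly all of its counts. The difference of Foxc2 was -1.20 on the log2(CPM + 1) scale (exact permutation, p = 0.603). Dorsal control 3, the library with the highest Foxc2, was also the highest of all 27 for Foxc1.

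The AP-2 genes did not share the pattern of Foxc1. Tfap2b had at most 1 count in each of the 4 dorsal controls and stood at 26.1 CPM (285 counts) in dorsal mutant 1, with 0 in the other 4 mutants. Its mutant mean was at least 30.3-fold higher than the floor of 3 counts per library in controls, but that ratio rested on 1 library, and p = 1.0 by exact permutation. Tfap2a was seen in dorsal mutant 5 alone, at 0.731 CPM (11 counts). Amacrine cells of the retina also express both AP-2 genes. Of the 5 amacrine genes looked at (Ptf1a, Prdm13, Pax6, Bhlhe22, Slc32a1), the summed level was 40.3 to 106 CPM in dorsal controls and 227 to 396 CPM in dorsal mutants, 2 of 5 were higher and 2 lower in mutants by mean CPM, and Ptf1a had no library over 3 counts in either group. Pax6, which many other cells of the eye express, was the 1 of the 5 with every mutant above every control, and the part of such cells in the Tfap2b value was not tested.

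Lmx1b and Prrx2 were each seen in single libraries. Lmx1b stood at 31.5 CPM (508 counts) in dorsal control 2 and at 17.3 CPM (406 counts) in axon mutant 2, and at no more than 3 counts in the other 25 libraries. Prrx2 stood at 27.5 CPM (404 counts) in axon mutant 3, 1.75 CPM in axon control 2 and 0.177 CPM in axon mutant 5, and had no count elsewhere. Neither gene passed the filter for testing, and a mean over a group says little about either.

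**Figure D2:**
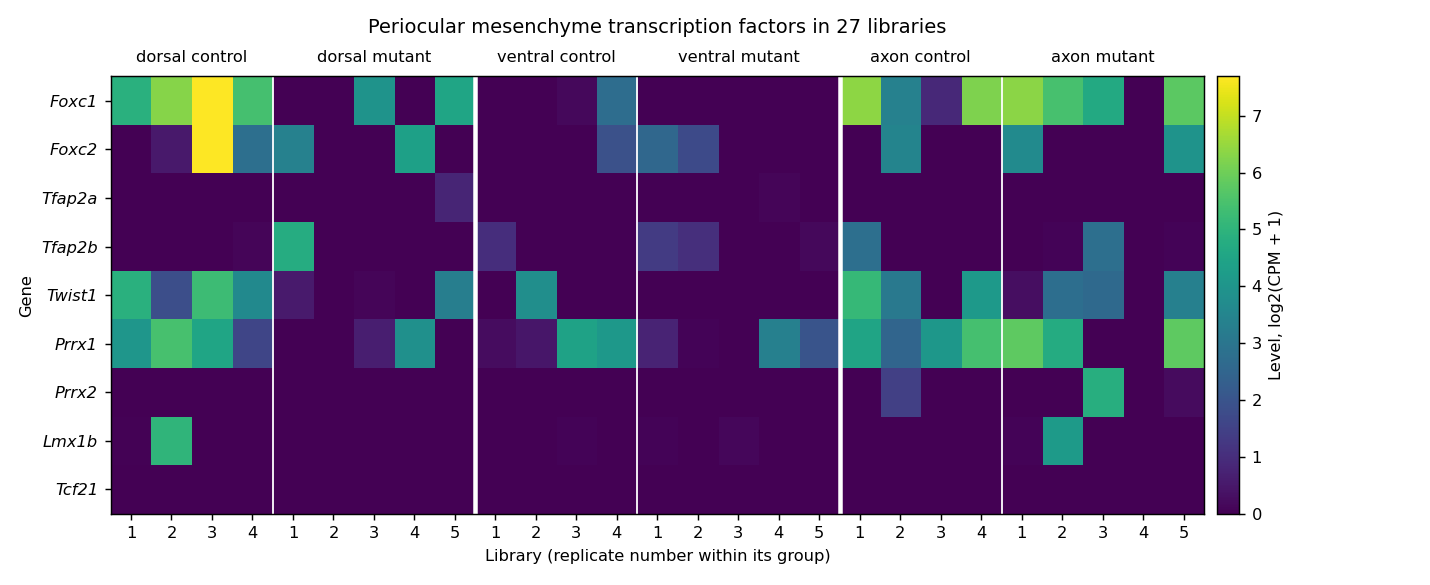
Level of the 9 transcription factors (rows) in each of the 27 libraries (columns, grouped by region and genotype and numbered by replicate), with colour giving log2(CPM + 1). Foxc1, Twist1 and Prrx1 fill the dorsal control and most axon columns, Tcf21 is dark throughout, and single bright squares mark Lmx1b, Prrx2 and Tfap2b.

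Counted over all 9 factors, the mean CPM in dorsal mutants was lower for 5 (Foxc1, Foxc2, Twist1, Prrx1, Lmx1b), higher for 2 (Tfap2a, Tfap2b) and 0 in both groups for 2 (Prrx2, Tcf21). Of all genes tested, 52.4% had a lower mean in dorsal mutants. The median difference of the 9 factors on the log2(CPM + 1) scale was -1.20, against 0.01 over all genes tested. More than 3 counts were found for 3, 5, 4 and 4 of the 9 factors in dorsal controls 1 to 4 and for 3, 0, 2, 2 and 3 in dorsal mutants 1 to 5. Of the 16330 genes that passed the filter, 65.8, 75.8, 54.2 and 78.5% had more than 3 counts in these controls. In the mutants the shares were 64.8, 71.7, 64.2, 68.5 and 75.5%. Dorsal mutant 2 held no count of any of them, at a depth of 16.8 M counts. The summed level of the 9, Foxc1 included, ran from 61.1 to 469 CPM in the controls and from 0 to 36.0 CPM in the mutants. Of the tested factors, Foxc1 alone had every mutant below every control, which 1.61% of all genes did.

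The count model across all genes gave no call for any factor in the dorsal comparison. By edgeR's quasi-likelihood test, 2 of 16145 genes (0.0124%) passed an adjusted p of 0.05 with a log2 fold change beyond 0.58, and 0 of the 5 tested factors did. At an unadjusted p under 0.05, which 5.35% of all genes had with edgeR, the count of factors was 0 with edgeR, 1 with DESeq2, 3 with limma voom and 2 with the newer method of edgeR. With these other tools 11.2%, 8.34% and 8.41% of all genes had such a p. Each tool called 0 factors after adjustment, while DESeq2 called 3.3% of all genes. The fitted log2 fold changes were -3.00 ± 2.05 (SE) for Foxc1, with an adjusted p of 0.969, -4.32 ± 2.61 (SE) for Twist1, with an adjusted p of 0.953, and -3.67 ± 2.54 (SE) for Prrx1, with an adjusted p of 0.975. Over 18 alternative fits the fold change stayed negative for each of the 3 genes, between -10.0 and -2.41 for Foxc1, -8.77 and -1.96 for Twist1, and -8.31 and -1.67 for Prrx1, with adjusted p-values from 0.330, 0.283 and 0.513, in this order, to 1.0. Leaving out 1 library moved the fits by over 1.5 times, to -6.81 for Foxc1 without mutant 5 and -5.27 without mutant 3, to -8.77 for Twist1 without mutant 5 and -1.96 without control 1, and to -8.31 for Prrx1 without mutant 4 and -1.67 without control 1.

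The matrix genes, the collagens, proteoglycans and elastic fibre proteins, were lower in the same libraries. Of 24 matrix genes, 22 had a lower mean CPM in dorsal mutants and 8 had every mutant below every control (Col1a1, Col1a2, Col3a1, Dcn, Lum, Fbn1, Fbln2 and Mfap2). An exact permutation p under 0.05, counted in either direction, was reached by 13. The shares over all genes tested were 52.4%, 1.61% and 7.66%, in this order. Mfap2, a microfibril protein of elastic fibres, was the 1 matrix gene that edgeR called. Its level was 1176, 875, 969 and 1053 CPM in dorsal controls 1 to 4 and 249.6, 176, 222, 179 and 302 CPM in mutants 1 to 5, which edgeR fitted as -2.16 ± 0.23 (log2 fold change, SE; adjusted p = 0.0124). The summed mesenchyme markers given below ran from 1087 to 9744 CPM over the dorsal controls and from 55.6 to 342 CPM over the mutants. Both this sum and Mfap2 were thus lower in every mutant than in every control. Among the controls, control 1 had the lowest such sum and the highest Mfap2. The part of mesenchyme cells in the Mfap2 difference was not tested. Col3a1, a fibrillar collagen, stood at 421 to 4263 CPM in the controls and 0 to 81.5 CPM in the mutants, and Col1a2 at 157 to 1891 CPM and 4.40 to 71.7 CPM. Dcn, the small proteoglycan decorin, stood at 176 to 1647 CPM against 11.9 to 58.6 CPM. Fbn2 and Fbln1, which encode an elastic fibre and a basement membrane protein, overlapped between the groups, with differences of -0.40 and -1.86 on the log2(CPM + 1) scale. Ogn, which encodes the small proteoglycan osteoglycin, went the other way and was higher in every dorsal mutant (86.5 to 361 CPM) than in every control (23.1 to 84.9 CPM), a separation upward that 1.31% of all genes showed. Ogn was named after its values were seen. The median difference of the 24 genes was -2.73 on the log2(CPM + 1) scale. This list shares Col1a1, Col1a2, Col3a1, Dcn and Lum with the markers used to follow mesenchyme cells, so the 2 lists are not independent.

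Other transcription factors known from mesenchyme were mixed. Of 26, 21 had a lower and 2 a higher mean CPM in dorsal mutants, 19 were tested, and 5 had an exact permutation p under 0.05 in either direction. Of all genes tested, 52.4% had a lower mean and 7.66% such a p. Tbx15, a T-box factor, stood at 0.0832, 59.1, 141 and 33.6 CPM in dorsal controls 1 to 4 and at no more than 0.864 CPM in the mutants (exact permutation, p = 0.0159). Ebf1 and Tbx18 differed by -3.14 and -2.51 on the log2(CPM + 1) scale with exact permutation p-values of 0.127 and 0.135. Zeb1 and Zeb2, zinc finger repressors that many mesenchyme and neural cells express, differed by 0.04 and 0.07 on that scale. Foxc1 and Tbx15 thus stood at no more than 0.0690 CPM in dorsal mutants 1, 2 and 4, while Zeb1 stood at 113, 32.5 and 73.2 CPM there.

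Markers of other cell types differed between the dorsal groups as well. All 6 mesenchyme markers (Pdgfra, Col1a1, Col1a2, Col3a1, Dcn, Lum) had every mutant below every control, which 1.61% of all genes did. Their summed level was 1087 to 9744 CPM in controls and 55.6 to 342 CPM in mutants. Pdgfra, the receptor that defines many mesenchyme cells, had no count in mutants 1, 2 and 3, 0.483 CPM in mutant 4 and 22.4 CPM in mutant 5, against 43.7 to 312 CPM in the controls. Of 6 genes of the retinal pigment epithelium (Dct, Tyr, Tyrp1, Pmel, Mlana, Rpe65), 5 had a higher and 0 a lower mean CPM in dorsal mutants, Rpe65 had no library over 3 counts in either group, and the summed level was 39.5 to 4669 CPM in controls and 2879 to 11309 CPM in mutants. Of 8 endothelial genes 7 had a lower mean in mutants, with sums of 273 to 457 CPM and 64.3 to 471 CPM. Genes of the optic stalk (Pax2, Vax1, Vax2, Hes1, Sox2) summed to 281 to 482 CPM in dorsal controls and to 83.3 to 185 CPM in mutants, 4 of 5 had a lower mean in mutants, and Hes1 had every mutant below every control. Ednrb, an endothelin receptor gene of neural crest and melanoblasts, had every mutant below every control too, and Foxd3, a forkhead gene of early neural crest, had no library over 3 counts in either group. The dorsal control with the highest Foxc1, control 3, also had the highest sum of mesenchyme markers (9744 CPM) and the lowest sum of pigment epithelium genes (39.5 CPM). The part of these cell types in the Foxc1, Twist1 and Prrx1 differences was not tested.

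**Figure D3:**
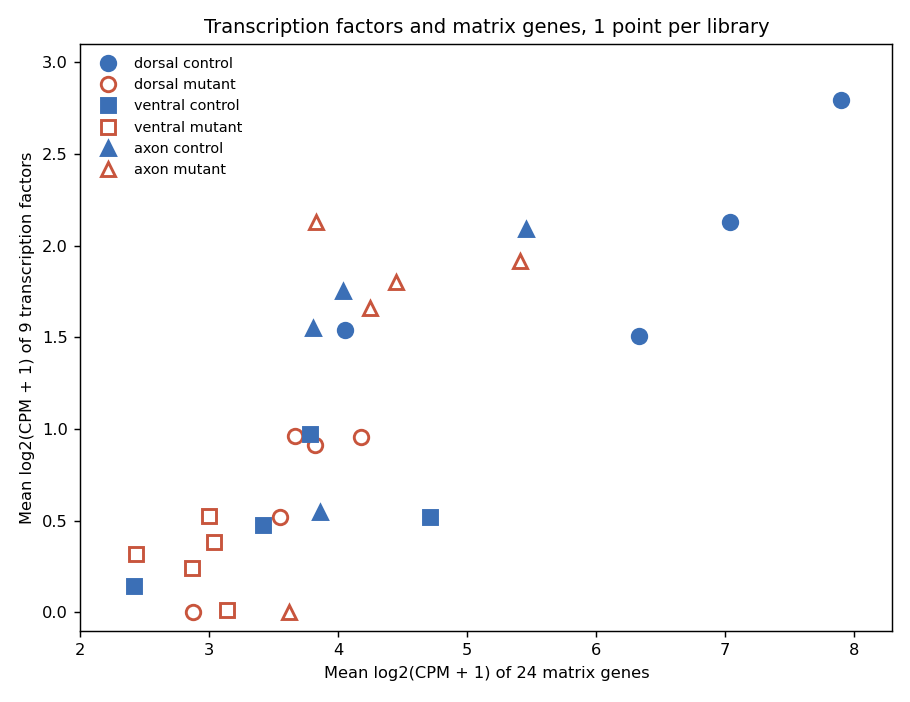
Mean log2(CPM + 1) of the 9 transcription factors (vertical axis) against that of the 24 matrix genes (horizontal axis), 1 point per library, with circles for dorsal, squares for ventral and triangles for axon libraries, filled blue for controls and open red for mutants. The dorsal controls lie between 1.51 and 2.79 on the vertical axis and the dorsal mutants between 0 and 0.96, while axon mutant 5 reaches 2.13 at a matrix level of 3.83.

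The plot of factors against matrix genes sets the lists side by side in each library. The mean level of the 9 factors did not overlap between dorsal controls, at 1.51 to 2.79, and dorsal mutants, at 0 to 0.96, on the log2(CPM + 1) scale. Foxc1, which enters that mean, was the 1 tested factor with every dorsal mutant below every dorsal control. The other tested factors each overlapped, and a mean without Foxc1 was not taken. The mean level of the 24 matrix genes ran from 4.05 to 7.90 in dorsal controls and from 2.88 to 4.18 in dorsal mutants, and control 1 lay below mutant 5. Dorsal control 1 and dorsal mutant 5 were close in matrix level, at 4.05 and 4.18, and stood at 1.54 and 0.96 for the factors. Axon mutant 5 reached 2.13 for the factors, the same as dorsal control 2, at matrix levels of 3.83 and 7.04. The points come from 9 embryos with 3 regions each, and share library depth and the cells captured, so they are given as a description.

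In the ventral stalk the factors were sparse in both genotypes. Foxc1 stood at 0, 0, 0.114 and 5.78 CPM in ventral controls 1 to 4 and had no count in any of the 5 mutants. Against the floor of 3 counts per library in mutants the control mean was at least 9.12-fold higher, but 1 library carried it, and p = 0.167 by exact permutation. Twist1 was likewise confined to ventral control 2 at 13.0 CPM among the 9 ventral libraries, at least 20.1-fold above the floor of the mutants by group means, with an exact permutation p of 0.444. Prrx1 was spread over more ventral libraries, at 0.204, 0.381, 20.6 and 16.0 CPM in controls and 0.710, 0.0615, 0, 9.27 and 3.0 CPM in mutants, with overlapping groups and an exact permutation p of 0.389. Over the 9 factors the mean CPM was lower in ventral mutants for 3, higher for 4 and equal for 2, where 50.9% of all genes tested were lower. Of the 24 matrix genes, 16 had a lower and 8 a higher mean CPM in ventral mutants. Their median difference was -0.78 on the log2(CPM + 1) scale, against -0.03 over all genes tested. All 6 mesenchyme markers had a lower mean in ventral mutants, and of the 26 other factors 19 were lower and 4 higher. No ventral matrix gene of the 24 and none of the 5 tested factors had every mutant below every control, where 0.706% of 16139 genes did. By edgeR 0 of 16139 genes (0%) and 0 factors were called, and 0 factors had an unadjusted p under 0.05, against 3.19% of all genes. DESeq2, which called 2.12% of all genes, limma voom and the newer method of edgeR also called 0 factors, with 0 at an unadjusted p under 0.05, where 8.66%, 4.3% and 4.11% of all genes had one.

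In the axon region the groups overlapped for every factor. Foxc1 stood at 82.6, 9.49, 0.835 and 72.4 CPM in axon controls 1 to 4 and at 81.5, 42.5, 24.4, 0 and 53.0 CPM in mutants 1 to 5 (exact permutation, p = 0.897). Both groups ran from under 1 CPM to over 80 CPM. Prrx1 stood at 21.4, 4.75, 15.8 and 41.7 CPM in controls and at 54.0, 25.7, 0, 0 and 54.1 CPM in mutants (exact permutation p of 0.563), so 2 mutants had no count and the other 3 each lay above at least 3 of the 4 controls. Twist1 stood at 34.8, 7.58, 0 and 16.8 CPM in controls and at 0.229, 5.93, 5.24, 0 and 9.18 CPM in mutants, a difference of -1.29 on the log2(CPM + 1) scale with an exact permutation p of 0.333. Foxc2 was found in 1 axon control and in 2 axon mutants.

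Axon mutant 4 had no count of any of the 9 factors. Its mesenchyme markers summed to 629 CPM, against 455 to 2176 CPM in the other axon mutants, of which mutant 5 alone was lower. Over the 9 factors the mean CPM was lower in axon mutants for 3, higher for 4 and equal for 2, where 54.4% of all genes tested were lower, and the median difference over all genes was -0.23 on the log2(CPM + 1) scale. No tested factor had every mutant below every control, where 1.04% of 14977 genes did. Of 8 endothelial genes, 8 had a higher mean CPM in axon mutants and 0 had an exact permutation p under 0.05. Their sums overlapped, at 12.8 to 189 CPM in controls and 37.2 to 385 CPM in mutants, and their part in the result was not tested. The matrix genes were split in the axon region, as the factors were, with 11 of 24 lower and 12 higher in mutants by mean CPM. By edgeR 0 of 14977 genes (0%) and 0 factors were called, and 0 factors had an unadjusted p under 0.05, against 3.55% of all genes. DESeq2, which called 8.27% of all genes, limma voom and the newer method of edgeR called 0 factors, with 0 at an unadjusted p under 0.05, where 13.6%, 6.92% and 4.96% of all genes had one.

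**Figure D4:**
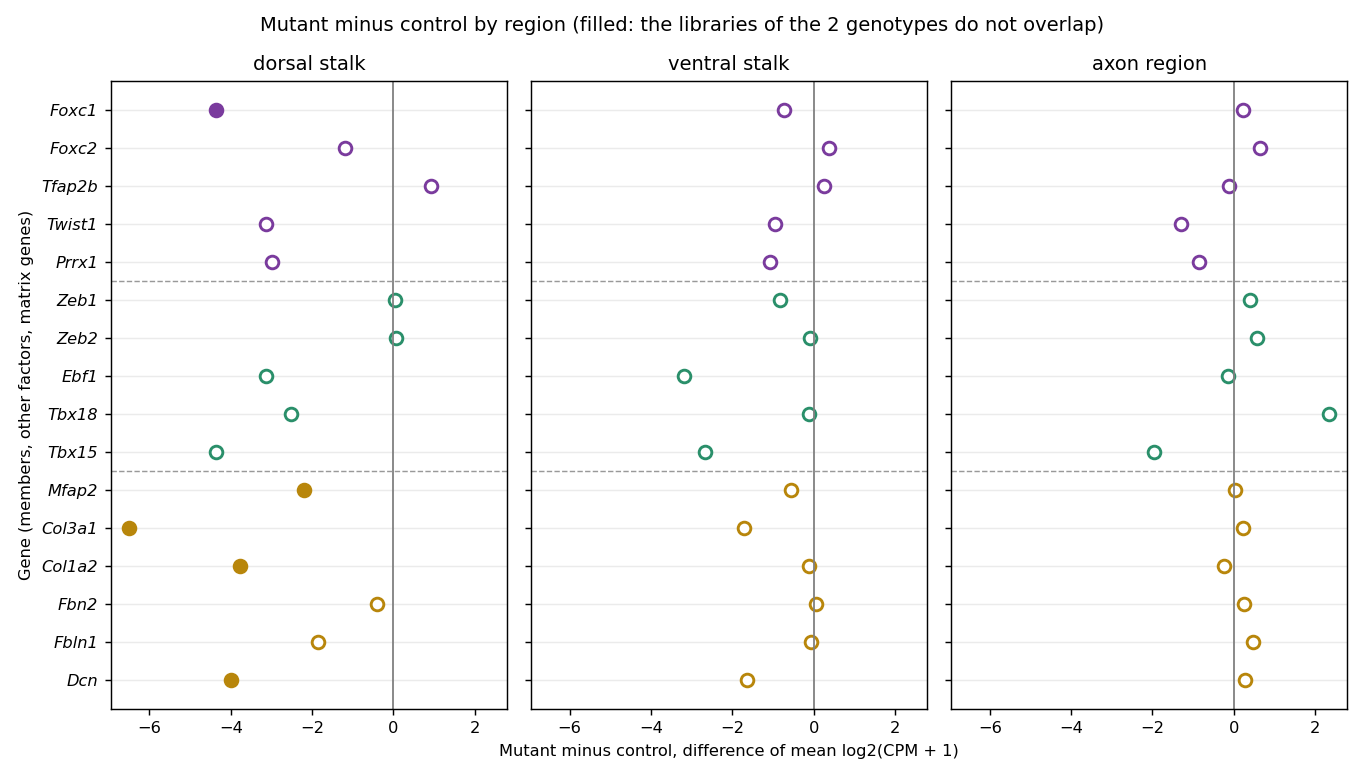
Mutant minus control difference of the mean log2(CPM + 1) in the 3 regions (panels, from left dorsal, ventral and axon) for the 5 tested members (top), 5 other transcription factors (middle) and 6 matrix genes (bottom), with filled points where the libraries of the genotypes do not overlap. Filled points occur in the dorsal panel alone, at Foxc1, Mfap2, Col3a1, Col1a2 and Dcn.

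The difference between regions was tested directly, with samples of the same number taken as 1 embryo. Taking dorsal minus ventral within each embryo on the log2(CPM + 1) scale, Foxc1 was higher dorsally in 4 of 4 controls, by 5.34 ± 2.10 (SD, n = 4), and in 2 of 5 mutants, by 1.70 ± 2.33 (SD, n = 5), and the genotypes differed with p = 0.0635 by exact permutation. Dorsal minus axon, Foxc1 differed by 1.86 ± 3.83 (SD, n = 4) in controls and by -2.75 ± 2.93 (SD, n = 5) in mutants, with an exact permutation p of 0.127. For Twist1 and Prrx1 the exact permutation p-values were 0.238 and 0.270 between dorsal and ventral. The lower dorsal level of these factors in mutants is therefore not shown to be particular to the dorsal stalk. In the model of all 27 libraries edgeR called 1 gene (0.00612% of 16330) for dorsal minus ventral and 2 (0.0122%) for dorsal minus axon, 0 of them among the 5 tested factors, of which 0 had an unadjusted p under 0.05, where 2.29% and 4.95% of all genes did. DESeq2, which called 4.49% and 12.5% of all genes, limma voom and the newer method of edgeR called 0 factors in either, and at an unadjusted p under 0.05 DESeq2 had 1 and 2 of them, limma voom 0 and 1, and the newer method 0 and 1. Of all genes, 12.9% and 22% had such a p with DESeq2, 5.14% and 9.88% with limma voom and 3.5% and 7.33% with the newer method. A fitted fold for Foxc1 is not given, since all ventral mutants were at 0.

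Among controls, Foxc1 was higher in the dorsal than in the ventral piece of each of the 4 embryos. The 4 control embryos had Foxc1 at 28.6 to 205 CPM dorsally, at 0 to 5.78 CPM ventrally and at 0.835 to 82.6 CPM in the axon region. The dorsal and ventral ranges did not overlap, and the dorsal and axon ranges did. With the embryo as a block, edgeR gave a dorsal minus ventral log2 fold change of 9.88 ± 2.66 (SE) for Foxc1, with an unadjusted p of 0.00797 and an adjusted p of 1.0, and it called 0 of 16118 genes (0%). The factors at an unadjusted p under 0.05 numbered 1 by edgeR and 2 by each of DESeq2, limma voom and the newer method of edgeR, where 2.54% of all genes had one by edgeR, 13.1% by DESeq2, 5.28% by limma voom and 5.51% by the newer method. DESeq2 called Foxc1, with an adjusted p of 6.78e-08, and Twist1, with an adjusted p of 0.00195, in a comparison where it called 3.87% of all genes. Over the 10 alternative fits the adjusted p of Foxc1 thus ran from 6.78e-08 to 1.0 and that of Twist1 from 0.00195 to 1.0. Twist1 stood at 2.61 to 37.5 CPM in the dorsal controls and at 13.0 CPM in 1 of 4 ventral controls, with a log2 fold change of 9.83 ± 4.71 (SE) and an adjusted p of 1.0 by edgeR. Ventral control 2 thus lay above dorsal control 2 for Twist1. Without the embryo as a block the log2 fold change was 2.70 for Twist1 and 5.97 for Foxc1, and with the newer method of edgeR 2.94 and 5.84. Prrx1 overlapped between the regions, at 2.02 to 42.8 CPM dorsally and 0.204 to 20.6 CPM ventrally.

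Of the 5 tested factors, 4 had a positive dorsal minus ventral fold change in controls and 1 had an unadjusted p under 0.05 in that direction, where 1.22% of all genes had one and 46.2% a positive fold change. Of the 24 matrix genes, 23 were positive and 14 had such an unadjusted p. Of the 20 tested other factors, 18 were positive and 3 had one. Between dorsal and axon pieces of the controls edgeR called 2 of 15899 genes (0.0126%) and 0 factors, and between ventral and axon pieces 0 of 15839 genes (0%) and 0 factors. The factors at an unadjusted p under 0.05 numbered 0 in each by edgeR, where 3.93% and 2.64% of all genes had one. DESeq2 called Foxc2 in the former, with an adjusted p of 0.00336 where it called 6.53% of genes, and Foxc1 in the latter, with an adjusted p of 0.00500 where it called 6.16%. The limma voom fit and the newer method of edgeR called 0 factors in either, with 0 and 0 at an unadjusted p under 0.05 for dorsal minus axon and 1 and 1 for ventral minus axon. DESeq2 had 1 and 3 factors at such a p. Of all genes 15.6%, 7.25% and 7.04% had one for dorsal minus axon, and 15.8%, 6.31% and 5.16% for ventral minus axon, by DESeq2, limma voom and the newer method.

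Divided by exonic length, the mean levels in dorsal controls were ordered Foxc2, Foxc1, Twist1 and Prrx1, at 19.3 ± 37.1, 15.1 ± 13.8, 12.3 ± 9.73 and 1.85 ± 1.54 CPM per kb (SD, n = 4). Foxc2, Foxc1 and Twist1 did not differ beyond their spread, and the place of Foxc2 rested on control 3. The gap between Twist1 and Prrx1 was larger than either SD, but Twist1 in control 2 lay within the range of Prrx1, and the gap was not tested. It also rests on the length used, that of all annotated exons joined, 1.628 kb for Twist1 and 11.066 kb for Prrx1. Before this division the CPM ranges of the 2 genes overlapped in dorsal controls. In axon controls Twist1 stood at 9.09 ± 9.22, Foxc1 at 7.07 ± 7.21, Prrx1 at 1.89 ± 1.40 and Foxc2 at 0.931 ± 1.86 CPM per kb (SD, n = 4), again with wide spreads. Across the 27 libraries the level of Foxc1 ran most like that of Twist1 (Pearson r of log2 CPM 0.75) and next like that of Prrx1 (0.54), while Foxc1 and Foxc2 had an r of 0.21 and Tfap2b and Prrx1 one of -0.37. These libraries share regions, embryos and depth, so the coefficients are a description.

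The genes outside the list whose level followed the mean of the 5 tested factors most closely over the 27 libraries were Tbx18 (Pearson r 0.80), Defa30 (0.79), Epha3 (0.78), Foxd2os (0.76) and Epas1 (0.76). Tbx18 is a T-box factor of mesenchyme and pericytes, Epha3 an ephrin receptor, Epas1 the hypoxia-inducible factor HIF-2 alpha and Foxd2os a transcript beside Foxd2. Epha3 stood at 34.5 to 489 CPM in dorsal controls and at 0.207 to 19.4 CPM in dorsal mutants, and at 0 to 122 CPM in axon mutants. Tbx18 stood at 0, 18.2, 22.1 and 63.9 CPM in dorsal controls and at 6.97, 0, 0, 0 and 6.91 CPM in dorsal mutants, and reached 207 CPM in axon mutant 2. Defa30 belongs to the defensin family, whose near-identical copies can share reads, and its dorsal controls had a mean of 4.91 ± 3.46 CPM (SD, n = 4), so its identity is uncertain.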

How the data were processed

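The authors laser-captured the 3 regions, amplified cDNA from SuperScript II reverse transcription with KAPA HiFi, made Nextera XT libraries and sequenced single ends on a NextSeq. They aligned reads to mm10 with STAR within Seq2Science and deposited raw HTSeq counts per gene; tool versions, annotation release and strand setting are not given in the sources used here. The deposited counts were used unchanged, with 55141 of 55487 gene IDs matched to GENCODE M21. CPM is the count per 1000000 counts of the library. The filter kept 16330 genes, those that exceeded 10 counts in 3 or more of the 27 libraries. Genotypes were compared within each region with batch as a term, regions within controls with the embryo as a block, and the difference of genotype effects over all libraries with the embryo as a block. The main test was the quasi-likelihood F-test of edgeR 4.0.16 (TMM) in R 4.3.3, two-sided; a call needed both 0.05 as the upper limit of the p-value adjusted by Benjamini-Hochberg and a log2 fold change beyond 0.58 in size. DESeq2 1.42.0, limma 3.58.1 voom, the newer edgeR method, other scalings and filters, batches alone and leaving out each embryo were alternatives. Exact permutation tests used log2(CPM + 1) in Python 3.11.15. The fits were tested on simulated data.

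The text names the 9 factors, Smarcc1, the 6 most abundant genes of each list of other factors and matrix genes, the 5 genes most like the factors, and list genes called; Ogn, Pdgfra, Pax6 and the other genes named for lying apart between the groups were named after their values were seen. Some genes that this rule names are not reported here. The factors and the lists were chosen with earlier results of these data known. Samples with the same number in the 3 regions of a genotype were taken to come from 1 embryo. In controls, deviations from the group means had median correlations of 0.0842, 0.0569 and 0.0529 for the same number. For different numbers the medians were -0.0364, -0.0232 and -0.0357. The ranges overlapped, at 0.0639 to 0.148 and -0.109 to 0.0832 between dorsal and ventral controls. Such correlations between regions were not taken in mutants. No 2 libraries were identical.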

Additional observations from a re-analysis of the deposited data

Results flagged for a closer look

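Single libraries often held most of a factor's counts. Of 54 combinations of a factor and a group, 19 had 1 library far from the others of its group by Dixon's test at 95%, where chance gives about 1 in 20 groups. Groups with 1 library above 0 meet this by construction, and in 16 of the 19 that library had more than 3 counts.

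In dorsal controls Foxc2 stood at 204 CPM in control 3 (next 5.99 CPM), Lmx1b at 31.5 CPM in control 2 and Tfap2b at 0.0673 CPM in control 4. In dorsal mutants Tfap2b stood at 26.1 CPM in mutant 1, Prrx1 at 13.6 CPM in mutant 4 (next 0.566 CPM), Twist1 at 8.84 CPM in mutant 5 (next 0.459 CPM) and Tfap2a at 0.731 CPM in mutant 5. The dorsal groups of Prrx1 overlapped through mutant 4 and control 4, and those of Twist1 through mutant 5 and control 2. Leaving out either library of a pair removed the overlap.

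In ventral controls Twist1 stood at 13.0 CPM in control 2, Foxc1 at 5.78 CPM and Foxc2 at 2.73 CPM in control 4, Tfap2b at 1.02 CPM in control 1 and Lmx1b at 0.0571 CPM in control 3. In ventral mutants Tfap2a stood at 0.0697 CPM (1 count) in mutant 4. In axon controls Foxc2 stood at 10.1 CPM and Prrx2 at 1.75 CPM in control 2, and Tfap2b at 5.95 CPM in control 1. In axon mutants Prrx2 stood at 27.5 CPM and Tfap2b at 6.05 CPM in mutant 3, and Lmx1b at 17.3 CPM in mutant 2.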

How the results depend on the processing

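Most factors had few reads, and 4 or 5 libraries a group, with a single batch A control, limit every test. The exact p of Foxc1 in the dorsal stalk stayed between 0.0286 and 0.0357 when any 1 library was left out. That of Twist1 ran from 0.0179 to 0.0571 and was 0.05 within batches and 0.114 without dorsal mutants 1 and 2. That of Prrx1 ran from 0.0179 to 0.107 and was 0.0317 with a pseudocount of 0.1 CPM. The factors with every dorsal mutant below every control numbered 1 to 2 when 1 library was left out: Twist1 joined without control 2 or mutant 5, and Prrx1 without control 4 or mutant 4. The matrix genes numbered 8 to 17, with 17 without control 1. The difference in detected factors ran from 1.5 to 2.33 around 2.0. The mean share of all filtered genes with more than 3 counts was 68.6% in dorsal controls and 69.0% in dorsal mutants. The exchange within batches, the scaling of CPM by TMM or RLE, detection at over 1 CPM and leaving out dorsal mutants 1 and 2 together were chosen after seeing the data.

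With DESeq2 the factors called in controls were 2 between dorsal and ventral, 1 between dorsal and axon and 1 between ventral and axon, against 0 by edgeR; the cause was not tested. Over all genes DESeq2 called 532 dorsally, 342 ventrally and 1238 in the axon region where edgeR called 2, 0 and 0. Between regions it called 623, 1038 and 976 against 0, 2 and 0, and for the differences of genotype effects 733 and 2039 against 1 and 2.

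Control and mutant numbers did not pair (median correlations of -0.0245, -0.0156 and -0.009 for the same number). A replicate block in place of batch took the dorsal calls from 2 to 0 and left 0 ventrally and in the axon region, with 0 factors called. Without the embryo as a replicate block the region calls were 0, 11 and 5, again with 0 factors. No direction of the dorsal Foxc1, Twist1 or Prrx1 fold change was reversed in 18 alternative fits.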
